A study of Mus musculus with 12 samples.

Results

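The serotonin receptor genes of the mouse were followed in the nucleus accumbens, the ventral part of the striatum, of adult offspring whose mothers had been exposed to a viral mimetic. The 10 members are Htr1a, Htr1b, Htr1d, Htr1f, Htr2a, Htr2c, Htr4, Htr5a, Htr6 and Htr7, which were chosen by name. Each was matched to the row of the value table whose platform annotation gives that symbol alone, and all 10 of 10 had 1 such row, among 21218 rows with 1 gene symbol and 35556 rows in all. Where a gene had several rows the one with the highest mean level would have been taken, but no member needed that choice.

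Poly(I:C) offspring and control offspring gave 6 arrays each, labelled as biological replicates of strain C57BL/6N. The mothers in the first group had received the double-stranded RNA poly(I:C) at 5 mg/kg into a vein on gestation day 17, and those in the second group saline. All offspring had gone through behavioural testing and were dissected at 12 weeks of age, and the piece taken from 1 mm coronal slices held core and shell together. No label gives litter, sex or array strip, so p-values measure the spread between these arrays.

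Serotonin is released in the forebrain by axons of raphe neurons, whose cell bodies lie in the brainstem, and acts through a large family of receptors. Most are coupled to G proteins. Htr1a, Htr1b, Htr1d, Htr1f and Htr5a encode receptors that act through inhibitory G proteins and lower cyclic AMP, Htr2a and Htr2c encode receptors that act through Gq and phospholipase C, and Htr4, Htr6 and Htr7 encode receptors that raise cyclic AMP. In the rodent forebrain Htr2a is abundant in cortex and Htr1a in hippocampus and septum, whereas Htr1b, Htr4 and Htr6 are known from striatal projection neurons. The comparison asks whether prenatal exposure goes with other receptor transcript levels in adulthood, and whether they follow cortical tissue, read through Slc17a7, the vesicular glutamate transporter gene of cortical neurons.

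Windows upstream of 3 receptor genes are shown because these genes had higher values in poly(I:C) offspring and differ below in how they follow Slc17a7. Each window holds the 250 bases before the annotated start in RefSeq (build GRCm38.p6), written 5′ to 3′ in the direction of the gene, and capitals mark a GC box (GGGCGG or its complement strand, CCGCCC).
Htr2a (chr14:74640624-74640873, plus strand): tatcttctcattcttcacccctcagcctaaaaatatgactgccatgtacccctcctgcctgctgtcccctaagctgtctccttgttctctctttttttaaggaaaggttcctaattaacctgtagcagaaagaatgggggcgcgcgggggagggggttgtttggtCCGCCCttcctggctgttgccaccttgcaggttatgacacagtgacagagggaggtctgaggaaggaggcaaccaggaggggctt
Htr1f (chr16:65105785-65106034, minus strand): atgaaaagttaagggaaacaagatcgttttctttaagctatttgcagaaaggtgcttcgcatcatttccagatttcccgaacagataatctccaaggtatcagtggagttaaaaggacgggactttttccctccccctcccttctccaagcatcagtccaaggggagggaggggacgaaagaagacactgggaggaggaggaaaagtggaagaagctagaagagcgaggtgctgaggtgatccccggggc
Htr1a (chr13:105443443-105443692, plus strand): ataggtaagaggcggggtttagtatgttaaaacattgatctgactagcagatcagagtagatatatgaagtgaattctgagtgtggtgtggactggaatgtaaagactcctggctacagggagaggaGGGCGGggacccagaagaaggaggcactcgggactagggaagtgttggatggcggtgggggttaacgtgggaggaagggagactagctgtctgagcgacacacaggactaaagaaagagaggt
The GC content was 52.8% for Htr2a, 49.2% for Htr1f and 50.4% for Htr1a, against a median of 52.4% over 32851 windows of the same length. A GC box was found on either strand of the Htr2a and Htr1a windows and not of the Htr1f window, and 32.7% of all windows held one. A TATA box (TATAAA), a cyclic AMP response element (TGACGTCA) and the E-box CAGATG were searched on both strands and matched in none of the 3 windows, whereas 12.4%, 1.55% and 14.4% of all windows held them.

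Of the 10 members, 8 were higher in value in poly(I:C) offspring, as were 50.9% of all tested rows, and 2 were lower. Receptor genes outside the members are given below. Over the settings tried 6 to 8 were higher, since the signs of Htr1d and Htr6 turned under some of them. None passed the adjusted threshold of 0.05. The test was limma over all 21218 rows with 1 symbol, where 0.0613% of rows passed. The limma adjusted p-values of the members ran from 0.0837 for Htr4 to 0.980 for Htr1d. At an unadjusted p under 0.05 there were 6 of 10 members, 5 higher (Htr1a, Htr1f, Htr2a, Htr4 and Htr5a) and 1 lower (Htr7), where 14.4% of all rows reached that level, 7.83% higher and 6.57% lower. The exact permutation test of each member gave p = 0.0519 for Htr2a and 0.0693 for Htr7, so both miss that level there, and Htr7 reached it in 10 of 23 alternatives. The median difference of the 10 members was 0.13 on the log2 scale and that of all tested rows 0.00. The family was proposed with earlier results of these arrays known, so this count is a description.

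**Figure D1:**
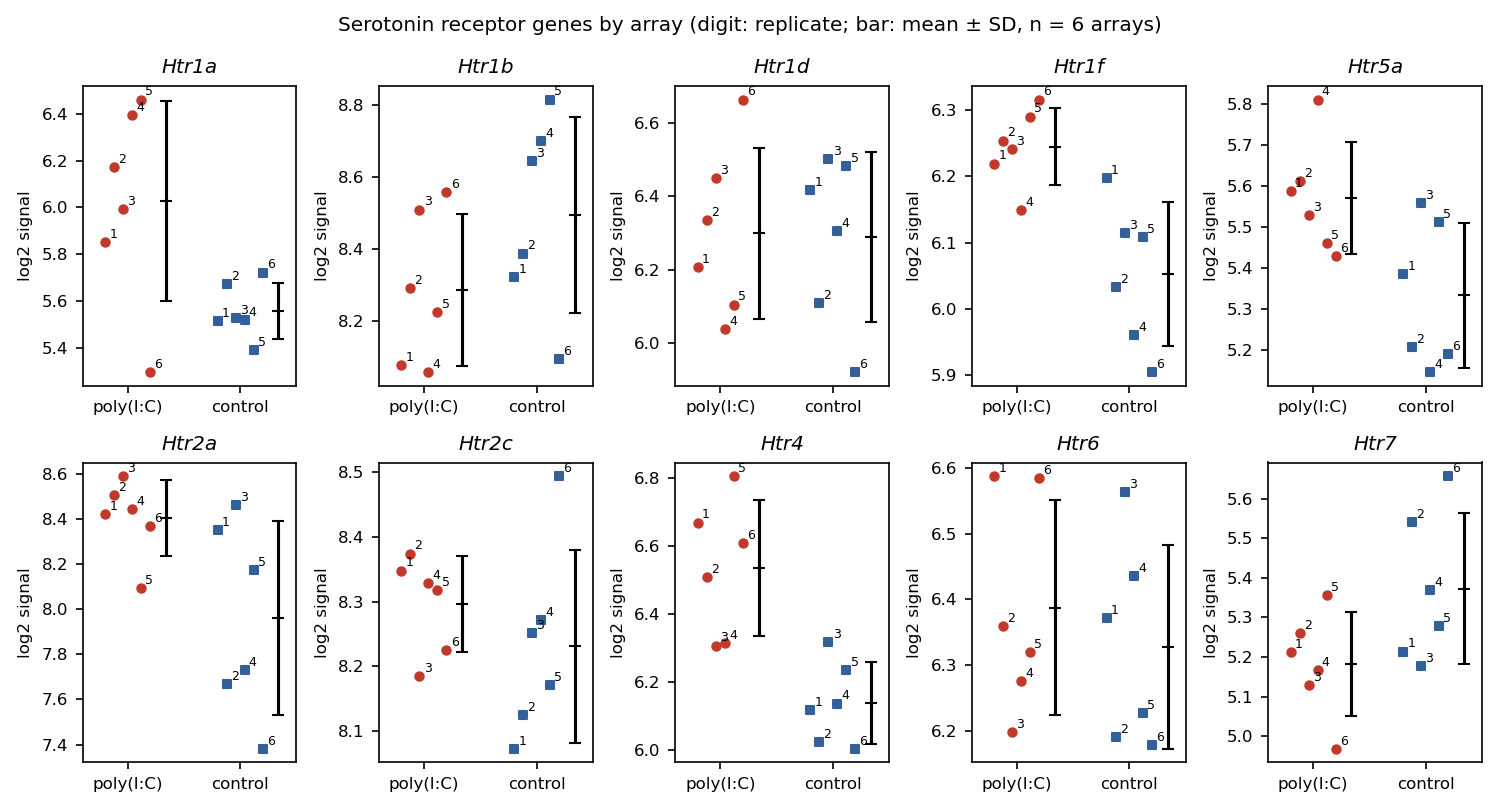
Log2 signal (vertical axis) of the 10 serotonin receptor genes in each array, with poly(I:C) offspring as red circles and control offspring as blue squares, the replicate number beside each point and bars for mean ± SD over 6 arrays. For Htr4 and Htr1f the groups barely overlap, and for Htr1a 5 of 6 poly(I:C) arrays lie above every control array while poly(I:C) 6 lies below them all.

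Among the receptors coupled to inhibitory G proteins, Htr1a had the largest difference of the family. Htr1a, which in raphe neurons serves as the autoreceptor and in forebrain as a postsynaptic receptor, ran from 5.29 through a median of 6.08 to 6.46 in poly(I:C) arrays, against 5.39, 5.52 and 5.72 in control arrays. In 5 of 6 poly(I:C) arrays it lay above every control array, and in poly(I:C) 6 it lay below every one. The means were 6.03 ± 0.43 in poly(I:C) and 5.56 ± 0.12 in control offspring (SD, n = 6 each), 0.47 log2 units apart (limma adjusted p = 0.204, 95% interval 0.14 to 0.81). Without poly(I:C) 6 the difference was 0.62 with a limma adjusted p of 0.0401, and over all settings tried for Htr1a the adjusted p ran from 0.0336 to 0.476.

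Htr1f, a receptor known as a target of antimigraine drugs, varied little between arrays of a group. It ran from 6.15 through 6.25 to 6.32 in poly(I:C) arrays, against 5.90, 6.07 and 6.20 in control arrays, and 5 of 6 poly(I:C) arrays lay above every control array. Poly(I:C) minus control was 0.19 log2 units for Htr1f (limma adjusted p = 0.135, 95% interval 0.09 to 0.30). Overlap came from poly(I:C) 4 at 6.15 and control 1 at 6.20.

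Htr5a, which encodes a less studied inhibitory receptor of forebrain neurons, ran from 5.43 through 5.56 to 5.81 in poly(I:C) arrays, against 5.14, 5.30 and 5.56 in control arrays. Controls 3 and 5, at 5.56 and 5.51, lay among the poly(I:C) arrays, and the other 4 control arrays lay below them all. Its mean was higher by 0.24 log2 units (limma adjusted p = 0.218, 95% interval 0.06 to 0.41).

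Htr1b and Htr1d encode receptors known as autoreceptors of serotonin terminals, and neither passed the test. Htr1b, also found on the axons of striatal projection neurons, ran from 8.06 through 8.26 to 8.56 in poly(I:C) arrays, against 8.09, 8.52 and 8.81 in control arrays. Poly(I:C) minus control was -0.21 log2 units (limma adjusted p = 0.459, 95% interval -0.47 to 0.05). Htr1d ran from 6.04 through 6.27 to 6.66 in poly(I:C) arrays, against 5.92, 6.36 and 6.50 in control arrays, and differed by 0.01 log2 units (limma adjusted p = 0.980, 95% interval -0.24 to 0.26). For both genes the ranges of the groups lay over each other for most arrays.

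Of the receptors coupled to Gq, Htr2a had a difference close in size to that of Htr1a and Htr2c had a small one. Htr2a, the receptor through which classical hallucinogens act, ran from 8.09 through 8.43 to 8.59 in poly(I:C) arrays, against 7.38, 7.95 and 8.46 in control arrays. The control arrays were spread out, with controls 1, 3 and 5 among the poly(I:C) values and controls 2, 4 and 6 below all of them. The means were 8.41 ± 0.17 in poly(I:C) and 7.96 ± 0.43 in control offspring, 0.44 log2 units apart (limma adjusted p = 0.246, 95% interval 0.10 to 0.79).

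Htr2c, whose transcript is edited in brain and which is widespread in striatum and choroid plexus, ran from 8.19 through 8.32 to 8.37 in poly(I:C) arrays, against 8.07, 8.21 and 8.49 in control arrays. The control range enclosed the poly(I:C) range. The highest value was that of control 6, in which the choroid plexus markers were also highest, and the part of that tissue alone in Htr2c was not tested. Poly(I:C) minus control was 0.07 log2 units (limma adjusted p = 0.675, 95% interval -0.07 to 0.20). With the means of the cortical, septal and choroid plexus markers in the limma fit it was 0.15 (unadjusted p = 0.0223, adjusted p = 0.410). In that fit 10.4% of all rows had an unadjusted p under 0.05.

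Of the receptors that raise cyclic AMP, Htr4 had the smallest p of the family. Htr4, a receptor of striatal projection neurons and limbic areas, ran from 6.31 through 6.56 to 6.81 in poly(I:C) arrays, against 6.00, 6.13 and 6.32 in control arrays. In 4 of 6 poly(I:C) arrays it lay above every control array, and poly(I:C) 3 and 4, both at 6.31, lay just under control 3 at 6.32. The means were 6.54 ± 0.20 in poly(I:C) and 6.14 ± 0.12 in control offspring, 0.40 log2 units apart (limma adjusted p = 0.0837, 95% interval 0.21 to 0.58). Htr4 stood at rank 89 of 21218 rows by p.

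Htr6, a receptor found mainly in striatum and cortex, ran from 6.20 through 6.34 to 6.59 in poly(I:C) arrays, against 6.18, 6.30 and 6.56 in control arrays, and the groups covered nearly the same range. The means were 0.06 log2 units apart (limma adjusted p = 0.783, 95% interval -0.12 to 0.24). Htr7, a receptor best known from thalamus and hypothalamus, ran from 4.97 through 5.19 to 5.36 in poly(I:C) arrays, against 5.18, 5.32 and 5.66 in control arrays. Controls 2, 4 and 6 lay above every poly(I:C) array for Htr7, and poly(I:C) minus control was -0.19 log2 units (limma adjusted p = 0.323, 95% interval -0.37 to -0.01).

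The ranges of the groups overlapped for 10 of 10 members, so 0 members separated the groups completely, where 1.13% of all tested rows did. The mean level lay above the median of all tested rows, 5.47, for 8 members, and Htr5a and Htr7 lay below it, where arrays resolve differences less well. Beyond the place against this median, levels of different genes are not compared, since each row has its own probes.

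Slc17a7 itself varied widely between arrays. It ran from 7.68 through 9.07 to 9.50 in poly(I:C) arrays, against 5.23, 7.04 and 9.41 in control arrays, with means 1.51 log2 units apart (limma adjusted p = 0.257, 95% interval 0.28 to 2.73). The mean of 9 measured cortical markers ran from 6.03 to 6.76 in poly(I:C) arrays and from 5.58 to 6.65 in control arrays, and that of 8 choroid plexus markers from 4.58 to 4.85 and from 4.77 to 7.23. The 8 septal and pallidal markers had means from 5.60 to 6.38 in poly(I:C) arrays and from 5.91 to 6.62 in control arrays, and the 9 markers of medium spiny neurons, the main neurons of the accumbens, from 9.25 to 9.64 and from 8.99 to 9.56, with 9 of 9 above the median level. Within the septal and pallidal list, 3 markers had a positive and 5 a negative group difference, from -0.60 to 0.60 log2 units. At an unadjusted limma p under 0.05 there were 2 on each side. Of the cortical markers, 7 had a positive and 2 a negative difference, and 5 were higher at an unadjusted p under 0.05. All 8 choroid plexus markers were lower in poly(I:C) offspring, 2 of them at that level, with a median difference of -0.57 log2 units. Of all tested rows, 7.83% were higher and 6.57% lower at that level. Within the septal and cortical lists the markers thus did not all shift alike, whereas those of choroid plexus shared 1 direction. Whether each list mean reads its tissue was not tested. The part of these tissues in the differences of the receptor genes was not tested beyond the fits given below. In such bulk tissue fewer cells of a type and less RNA per cell cannot be told apart.

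Htr2a followed Slc17a7 most closely among the receptor genes. Over 12 arrays Pearson's r was 0.945 (permutation p = 1e-05, the smallest that 100000 resamples can give, adjusted p = 0.0001 over the 10 members) and Spearman's rho 0.811 (permutation p = 0.00243, adjusted p = 0.0243). Within groups r was 0.896 over the 6 poly(I:C) arrays (exact permutation p = 0.0125, adjusted p = 0.125) and 0.923 over the 6 control arrays (exact permutation p = 0.00556, adjusted p = 0.0509). Without control 6 and control 2, the arrays farthest from the median of Slc17a7, r was 0.865. In a limma fit of every row on group and Slc17a7, Htr2a rose by 0.26 log2 units per log2 unit of Slc17a7 (95% interval 0.19 to 0.33, adjusted p = 0.00304), the 1 of 10 members past the threshold, where 1.80% of all rows passed, 1.02% with a positive and 0.773% with a negative slope. The call was lost with the mean of the other cortical genes in place of Slc17a7 (adjusted p = 0.133, where 0.943% of rows passed). It was also lost with a replicate block, where the slope was 0.30 (adjusted p = 0.109) and 0% of rows passed. Without the group term 3 members passed (Htr2a, Htr5a and Htr7), where 4.60% of all rows did.

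Htr5a, Htr1f and Htr7 also passed the permutation test over the 10 members, Htr7 in the opposite direction. The members and Slc17a7 were chosen with earlier results of these arrays known, so these calls, and that of Htr2a, are a description. In the limma fit of every row on group and Slc17a7, the slopes of Htr5a, Htr1f and Htr7 did not pass (adjusted p = 0.191, 0.397 and 0.112). For Htr5a r was 0.780 (permutation p = 0.00268, adjusted p = 0.00893) and rho 0.713 (adjusted p = 0.0400). For Htr7 r was -0.806 (permutation p = 0.00137, adjusted p = 0.00685) and rho -0.748 (adjusted p = 0.0355). For Htr1f r was 0.744 (permutation p = 0.00551, adjusted p = 0.0138), whereas rho was 0.538 and did not pass (adjusted p = 0.186).

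These 3 relations were weaker without both control 6 and control 2. There r was 0.647 for Htr5a, 0.471 for Htr1f and -0.488 for Htr7, and none of the 3 passed (adjusted permutation p = 0.176, 0.339 and 0.339). Without control 6 alone Htr5a passed (r = 0.736, adjusted permutation p = 0.0398). Htr1f (r = 0.584, adjusted permutation p = 0.147) and Htr7 (r = -0.664, adjusted permutation p = 0.0729) did not pass there. Without control 2 alone all 3 passed. Within groups r was 0.745 in poly(I:C) and 0.643 in control arrays for Htr5a, and -0.189 and -0.906 for Htr7. Htr1f was higher with Slc17a7 in control arrays (r = 0.917) and lower with it in poly(I:C) arrays (r = -0.769), and the difference between these slopes was not tested. An absolute r past 0.576, the two-sided 0.05 value for 12 arrays, was reached by 4 of 10 members and by 16.1% of all rows. On the positive side these were 3 members and 8.69% of rows, and on the negative side 1 member and 7.45% of rows.

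**Figure D2:**
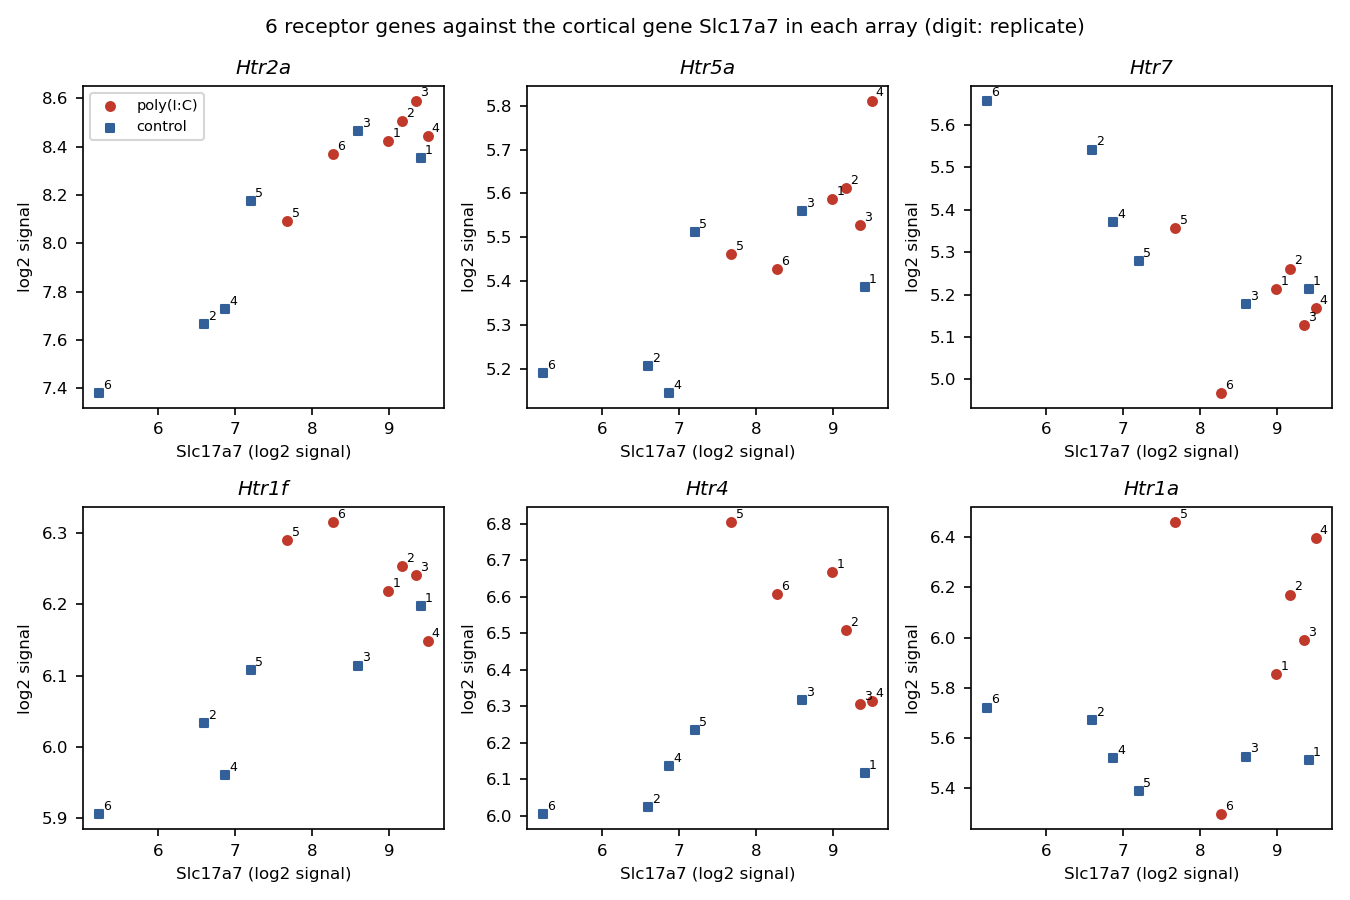
Log2 signal of 6 receptor genes (vertical axes) against that of Slc17a7 (horizontal axes), 1 point per array, with poly(I:C) offspring as red circles, control offspring as blue squares and the replicate number beside each point. Htr2a climbs with Slc17a7 along 1 line for both groups (r = 0.945), whereas for Htr4 and Htr1a most poly(I:C) arrays lie above the control arrays. Only controls 1 and 3, at 9.41 and 8.59, lie within the poly(I:C) range of Slc17a7.

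The other 6 members gave no call with Slc17a7. Their r ran from -0.274 for Htr2c to 0.443 for Htr4, and Htr1a stood at 0.304 (adjusted permutation p from 0.298 to 0.707). Within the poly(I:C) arrays Htr4 ran against Slc17a7 (r = -0.864, exact permutation p = 0.0319, adjusted p = 0.160), and within the control arrays r was 0.596.

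With Slc17a7 entered beside the group in the limma fit, the difference of Htr2a was 0.05 in place of 0.44 (95% interval -0.13 to 0.24), that of Htr5a 0.10 in place of 0.24 and that of Htr7 -0.04 in place of -0.19. The difference of Htr4 was as large with Slc17a7 in the fit, at 0.40 (95% interval 0.18 to 0.63), and so was that of Htr1a at 0.51 (95% interval 0.09 to 0.93). Htr1f stood at 0.13. This fit has 1 slope for both groups. Within poly(I:C) and control arrays r with Slc17a7 was -0.864 and 0.596 for Htr4, and -0.769 and 0.917 for Htr1f. No slope per group was fitted, so the fit cannot say how the difference of either gene depends on Slc17a7. Only controls 1 and 3 lay within the poly(I:C) range of Slc17a7, and the other control arrays lay below it. In this fit 0 of 10 members passed (limma adjusted p from 0.286 to 0.991) and 4 had an unadjusted p under 0.05 (Htr1a, Htr1f, Htr2c and Htr4), where 0% and 10.4% of all rows did.

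**Figure D3:**
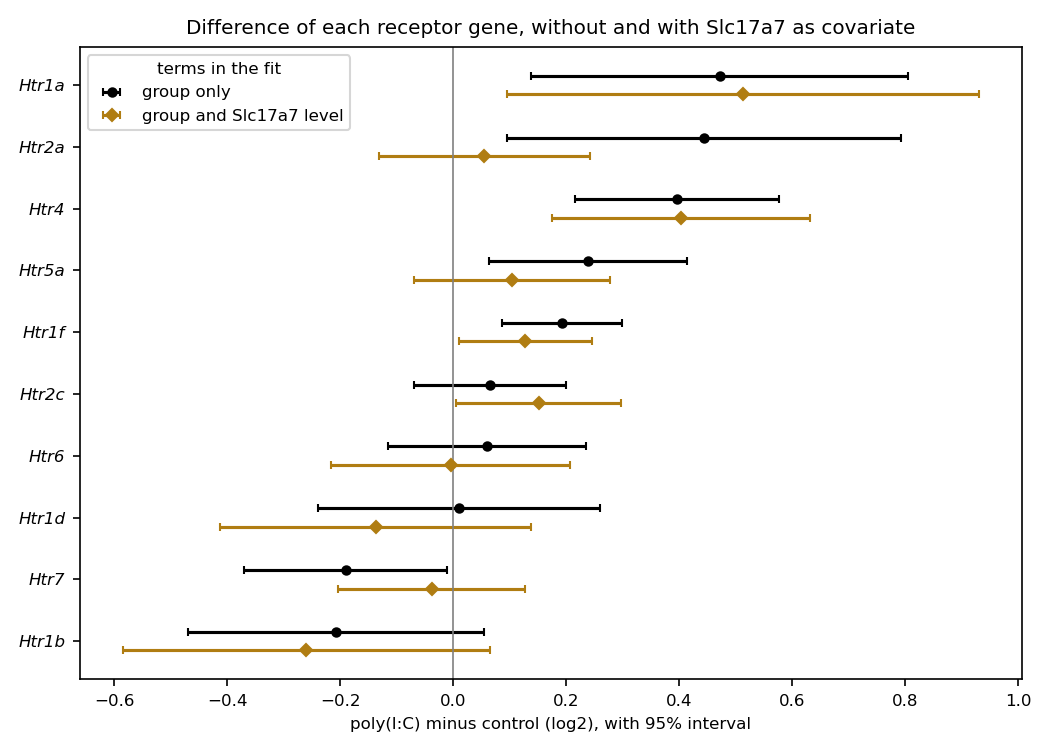
Log2 difference of poly(I:C) minus control offspring (horizontal axis) for each receptor gene with its 95% interval, from a limma fit with the group only (black circles) and with the group and the Slc17a7 level (ochre diamonds). The interval of Htr2a holds 0 once Slc17a7 is entered, whereas those of Htr4 and Htr1a do not. The fit with Slc17a7 has the same slope in both groups.

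Other markers of dissected tissue moved with other members. Over 30 relations of the 10 members with 3 list means, 7 passed at an adjusted permutation p under 0.05, again a description. An absolute r past 0.576 was reached with the other cortical mean by 4 members and 13.8% of all rows, with the septal and pallidal mean by 4 members and 15.4%, and with the medium spiny neuron mean by 3 members and 11.1%. Htr1d was higher with the medium spiny neuron mean (r = 0.849, permutation p = 0.00057, adjusted p = 0.00570, rho = 0.825 with adjusted p = 0.0249) and lower with the septal and pallidal mean (r = -0.889, permutation p = 0.00011, adjusted p = 0.00330, rho = -0.846 with adjusted p = 0.0249). Without the 2 arrays farthest from the median of the list these values were 0.677 and -0.760.

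Htr1b was likewise higher with the medium spiny neuron mean, with r = 0.720 over 12 arrays (permutation p = 0.00712, adjusted p = 0.0356), although rho of 0.699 did not pass (adjusted p = 0.0621). Within groups r was 0.864 in poly(I:C) arrays and 0.920 in control arrays. Htr7 was higher with the septal and pallidal mean (r = 0.869, permutation p = 0.00040, adjusted p = 0.00570), with 0.940 in poly(I:C) and 0.963 in control arrays, although its rho of 0.594 did not pass (adjusted p = 0.148). Htr7 was lower with the medium spiny neuron mean (r = -0.722, adjusted p = 0.0389), where r was -0.218 without the 2 farthest arrays. Its rho there, -0.545, did not pass (adjusted p = 0.162). Htr2a and Htr5a were higher with the mean of the 8 other cortical markers (r = 0.812 and 0.769, adjusted permutation p = 0.00690 and 0.0229). By rho Htr2a passed (0.797, adjusted p = 0.0311) and Htr5a did not (0.748, adjusted p = 0.0529).

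Htr1a did not pass with any of these means, over 12 arrays or inside a group. With the septal and pallidal mean r was 0.951 over the 6 poly(I:C) arrays (exact permutation p = 0.00556, adjusted p = 0.0926) and 0.900 over the 6 control arrays (exact permutation p = 0.0194, adjusted p = 0.106), against 0.514 over all 12 (permutation p = 0.0884, adjusted p = 0.166). With the medium spiny neuron mean r was -0.928 over the poly(I:C) arrays (exact permutation p = 0.00833, adjusted p = 0.0926) and -0.697 over the control arrays (exact permutation p = 0.124, adjusted p = 0.285). These p-values were adjusted over 60 relations within groups, of which 0 passed, 17 having an unadjusted exact p under 0.05. poly(I:C) 6, the array with the lowest Htr1a, had the lowest septal and pallidal mean of all, 5.60, and the highest medium spiny neuron mean, 9.64. When the limma fit held the means of the cortical, septal and choroid plexus markers, the difference of Htr1a was 0.37 and that of Htr4 0.42 (limma adjusted p = 0.290 and 0.288), and 0% of all rows passed.

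**Figure D4:**
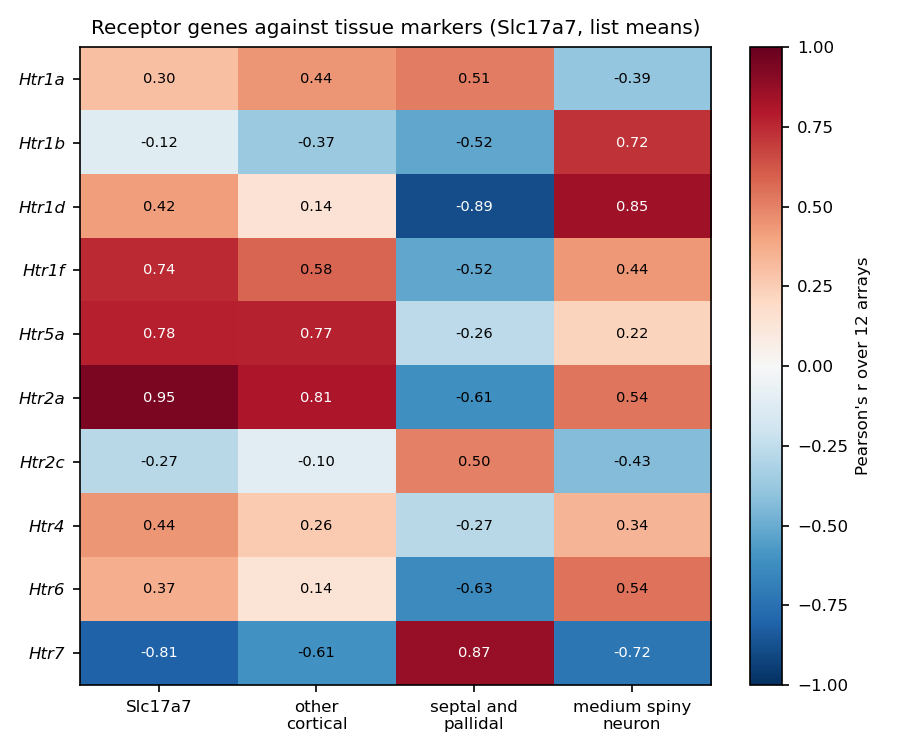
Pearson's r over 12 arrays of each receptor gene (rows) with Slc17a7 and with the means of the other cortical, the septal and pallidal and the medium spiny neuron markers (columns), on a colour scale from -1 (blue) to 1 (red). The values farthest from 0 are those of Htr2a with Slc17a7 (0.95), Htr1d with the septal and pallidal mean (-0.89), Htr7 with the same mean (0.87), Htr1d with the medium spiny neuron mean (0.85), Htr2a with the other cortical mean (0.81) and Htr7 with Slc17a7 (-0.81).

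The genes most alike to each member over the 12 arrays were sought among 9075 named genes above the median level. Htr2a was most like Grin2a, an NMDA receptor subunit gene (r = 0.959), and Porcn (r = 0.959). Htr4 was most like Gpr75 (r = 0.912) and Drd3, the dopamine D3 receptor gene enriched in ventral striatum (r = 0.908), and Drd3 had a log2 difference of 0.59 (limma adjusted p = 0.0592). Htr1b was most like the orphan receptor gene Gpr139 (r = 0.950) and Gcnt2 (r = 0.929), and Htr1d like the potassium channel gene Kcnq3 (r = 0.929) and Lamp5 (r = 0.928). Lamp5 is 1 of the cortical markers, and its log2 difference was -0.07, where 7 of 9 cortical markers were higher. With the other cortical mean, which holds Lamp5, r of Htr1d was 0.145.

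For Htr5a the nearest genes were the phosphodiesterase gene Pde1a (r = 0.953) and Kcnk1 (r = 0.952), and for Htr7 they were Fnbp1 (r = 0.965) and Itpkb (r = 0.964). Htr1a was nearest to Tox4 (r = 0.946) and Trir (r = 0.940), Htr1f to Megf6 (r = 0.913) and Tpgs2 (r = 0.903), and Htr6 to Scyl3 (r = 0.917) and Orai2 (r = 0.908). Htr2c had the least close neighbours, Sulf1 (r = 0.868) and Rgp1 (r = 0.859). All these values are the highest of a search and carry no test.

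Of the other genes of serotonin receptors, synthesis, transport and breakdown, 13 of 14 listed were measured. In the limma test over all rows 0 of them passed, where 0.0613% of rows did. At an unadjusted p under 0.05 there was 1 of 13, Maob, where 14.4% of all rows reached that level. Maob, a monoamine oxidase gene of astrocytes and serotonin neurons, stood at 7.60 ± 0.15 in poly(I:C) and 7.85 ± 0.21 in control offspring (log2 difference -0.24, limma adjusted p = 0.267). S100a10, which encodes p11, an adaptor that brings some serotonin receptors to the cell surface, stood at 7.57 ± 0.38 and 7.91 ± 0.34 (log2 difference -0.34, limma adjusted p = 0.409). Maoa, the other monoamine oxidase gene, differed by 0.02 and the receptor gene Htr5b by 0.05.

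Of the transcripts that mark serotonin neurons, 0 of 5 had a mean signal above the median level of all tested rows. Since each row has its own probes, this place does not measure abundance. The transporter gene Slc6a4 averaged 4.32 ± 0.06 in poly(I:C) and 4.37 ± 0.07 in control offspring, and Tph2, the enzyme of serotonin synthesis in brain, 3.65 ± 0.05 and 3.64 ± 0.06.

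Of 23 listed genes of G proteins, adenylyl cyclases, phospholipases, potassium channels and arrestins, 22 were measured and 0 passed over all rows. Of all rows 0.0613% passed. Among the 22 genes 14 were higher and 8 lower in value, where 50.9% of all rows were higher, and the median difference was 0.04. At an unadjusted p under 0.05 there was 1 gene, where 14.4% of all rows reached that level. The smallest p belonged to Adcy1, a calcium-stimulated adenylyl cyclase gene, with 7.70 ± 0.27 in poly(I:C) and 7.40 ± 0.20 in control offspring (log2 difference 0.30, limma adjusted p = 0.279). Adcy1 also rose with Slc17a7 within groups, by 0.17 per log2 unit (limma adjusted p = 0.0272). Kcnj3, a channel subunit opened by inhibitory receptors, differed by 0.25 and Gnal, the stimulatory G protein of striatal neurons, by 0.11 (limma adjusted p = 0.375 and 0.443).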

How the data were processed

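Total RNA was labelled from 250 ng and hybridised to Affymetrix Mouse Gene 1.1 ST strips, per the labels' protocols. The authors deposited 1 log2 value per row and array, made with RMA and Partek 6.6 per the submitters' processing notes; RMA pulls arrays to a common distribution and compresses low values. No source used here gives the settings or the genome build. Values lay between 1.86 and 12.29, array medians between 4.78 and 4.85, and no 2 arrays held identical values. The number of arrays limits the precision.

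Groups came from sample titles. Every row with 1 gene symbol was fitted with limma 3.58.1 in R 4.3.3 (eBayes defaults, two-sided, Benjamini-Hochberg over all 21218 rows, no filter, no further normalization), with the group alone, or with Slc17a7 beside it. Differences are poly(I:C) minus control. Correlations used two-sided permutation tests (100000 resamples, or all orders within 6 arrays). The group fit was tested on simulated data with independent noise in each row. It recovered 66% of 50 rows changed by 0.25 log2 units and 98% of 50 changed by 0.5, with 9 false calls. The changed rows were drawn at random, so these shares are not those of the members. The SD within groups ran from 0.09 for Htr1f to 0.33 for Htr2a among the members. Variation shared between rows, as in tissue content, was not simulated.

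All members were named, with up to 3 genes of smallest p of the serotonin and transduction lists besides Slc6a4, Tph2, Maoa, Maob and S100a10, and the 2 genes most correlated with each member. The receptor genes Htr2b, Htr3a and Htr3b were named besides. Members, lists and the choice of Slc17a7 were made with earlier results of these data known. Alternatives were other normalizations, filters, priors, array weights, covariates, a replicate block and arrays left out.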

Additional observations from a re-analysis of the deposited data

How the results depend on the processing

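Over 23 alternative settings, 4 to 7 members had an unadjusted p under 0.05 and 6 to 8 were higher in value, while 8.33% (without controls 4 and 6) to 17.8% (intensity filter, which tested 8 members) of all rows had such a p. Htr4 stayed between 0.34 and 0.44 on the log2 scale with a limma adjusted p from 0.0521 to 0.346. No alternative row could be tried for members, since each had 1. The number of members past the adjusted threshold was 0 to 1 with 1 array left out, the 1 without poly(I:C) 6, where 0.184% of all rows passed. It was also 1 (Htr1a) without both poly(I:C) 6 and control 1, a setting chosen after seeing the data, where 0.853% of all rows passed, against 0.0613% with all arrays. There 1 other gene, Adcy2, passed (log2 difference 0.29, limma adjusted p = 0.0425, against 0.463 with all arrays). Htr1d turned to -0.00275 after a repeated quantile normalization, -0.0311 with array weights, -0.137 with Slc17a7 as covariate, -0.0599 with 3 tissue means, -0.0777 without both control 4 and control 6 and -0.0367 without both poly(I:C) 6 and control 1, and ran from -0.0633 to 0.0627 with 1 array left out. Htr6 was at -0.00467 with Slc17a7 as covariate.

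The number of members called for a slope on Slc17a7 was 3 without the group term (Htr2a, Htr5a and Htr7; 4.60% of all rows), 0 with the mean of the other cortical genes (adjusted p = 0.133 for Htr2a), 0 with a replicate block (slope 0.30 and adjusted p = 0.109 for Htr2a, where 0 of 21217 rows passed) and 1 to 2 with 1 array left out, Htr7 being added without poly(I:C) 6, where 3.12% of all rows passed (0.212% to 3.12% over the arrays left out). The number called by correlation, 4 over all arrays, was 3 by Spearman's rho, 1 without the 2 arrays farthest from the median of Slc17a7, 0 within either group alone, and 2 to 4 with 1 array left out, the 2 without control 6 being Htr2a and Htr5a. With other measures, chosen after seeing the data, it was 2 with the other cortical genes, 2 with the septal and pallidal genes and 3 with the medium spiny neuron genes. The cause of these shifts was not tested.

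Replicate numbers are shared by the groups, and the labels do not say that they pair the arrays. The deviations of same-numbered arrays from their group means correlated from -0.201 to 0.269. Only poly(I:C) 2 was closest to its same-numbered control. These correlations cannot decide whether the arrays were paired. The replicate block left 0 members past the threshold for the group and 5 at an unadjusted p under 0.05, where 0% and 13.2% of all rows were.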
